A study of Mus musculus with 27 samples.

Results

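The costimulatory and checkpoint ligands described here are 8 genes, Cd274, Pdcd1lg2, Cd80, Cd86, Cd83, Cd40, Icosl and Havcr2, found by symbol among the 45070 genes of the table of normalised read counts. All 8 were present and all 8 passed the filter on low values (10 or more normalised read counts in 3 or more samples), as did 13901 genes in all. The cells were primary macrophages grown from bone marrow (BMDMs) of wild-type male C57/BL6 mice aged 6 to 8 weeks. Every culture, the untreated ones included, was kept for 1 h with DMSO, the solvent of the kinase inhibitors that the study used elsewhere. They were then left untreated or were given 10 ng/ml of lipopolysaccharide (LPS), a bacterial outer membrane component sensed by TLR4, or 10 ng/ml of the cytokine interleukin-4 (IL-4). Stimulation lasted 0.5, 1, 2 or 4 h. A single untreated group served all times. In changes from untreated, the stimulus therefore cannot be told apart from added time in culture, while LPS and IL-4 were compared at matched times. There were 9 groups with 3 replicates each, 27 samples in all, and the labels do not say whether replicates came from separate animals, so that p-values measure the spread between these samples. RNA bound to chromatin was sequenced, which is rich in transcripts still being made, so the values follow transcription rather than protein at the cell surface.

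Macrophages present antigen to T cells, and ligands on their surface set how a T cell responds. CD80 and CD86 bind CD28, which promotes activation, and CTLA-4, which restrains it, while ICOSL binds ICOS. CD40 receives the CD40 ligand of helper T cells. PD-L1, encoded by Cd274, and PD-L2, encoded by Pdcd1lg2, bind PD-1 and dampen T cells. LPS acts largely through NF-κB and interferon-driven factors, and IL-4 acts through JAK kinases and STAT6. The genes are ordered below by role: the PD-1 ligands, the CD28 ligands, the ICOS ligand, the activation markers CD40 and CD83, and TIM-3, the product of Havcr2.

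Over the LPS course all 8 genes passed the test for any change, where 87.6% of all tested genes passed. The largest change was a rise in 7 and a fall in Havcr2, where rises that passed made up 32.9% of all genes and falls 54.7%. Over the IL-4 course all 8 passed as well, where 40.3% of all tested genes passed, and 6 passed without replicate 2 or without replicate 3, in both cases without Icosl and Havcr2. The largest change was a rise in 5 and a fall in 3 (Cd80, Icosl and Havcr2), where 19.4% and 20.9% of all genes passed in these directions. A gene is called changed here when its limma p-value, adjusted after Benjamini and Hochberg over the 13901 genes, was under 0.05. This holds for the fit without the replicate number as a block, unless the block is named. The median change of the 8 genes at 2 h was 3.71 on the log2 scale under LPS and 1.56 under IL-4, where the median of all tested genes was −0.29 and −0.00. All changes below are differences in log2(normalised read count + 1), which understates the change of low genes.

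**Figure D1:**
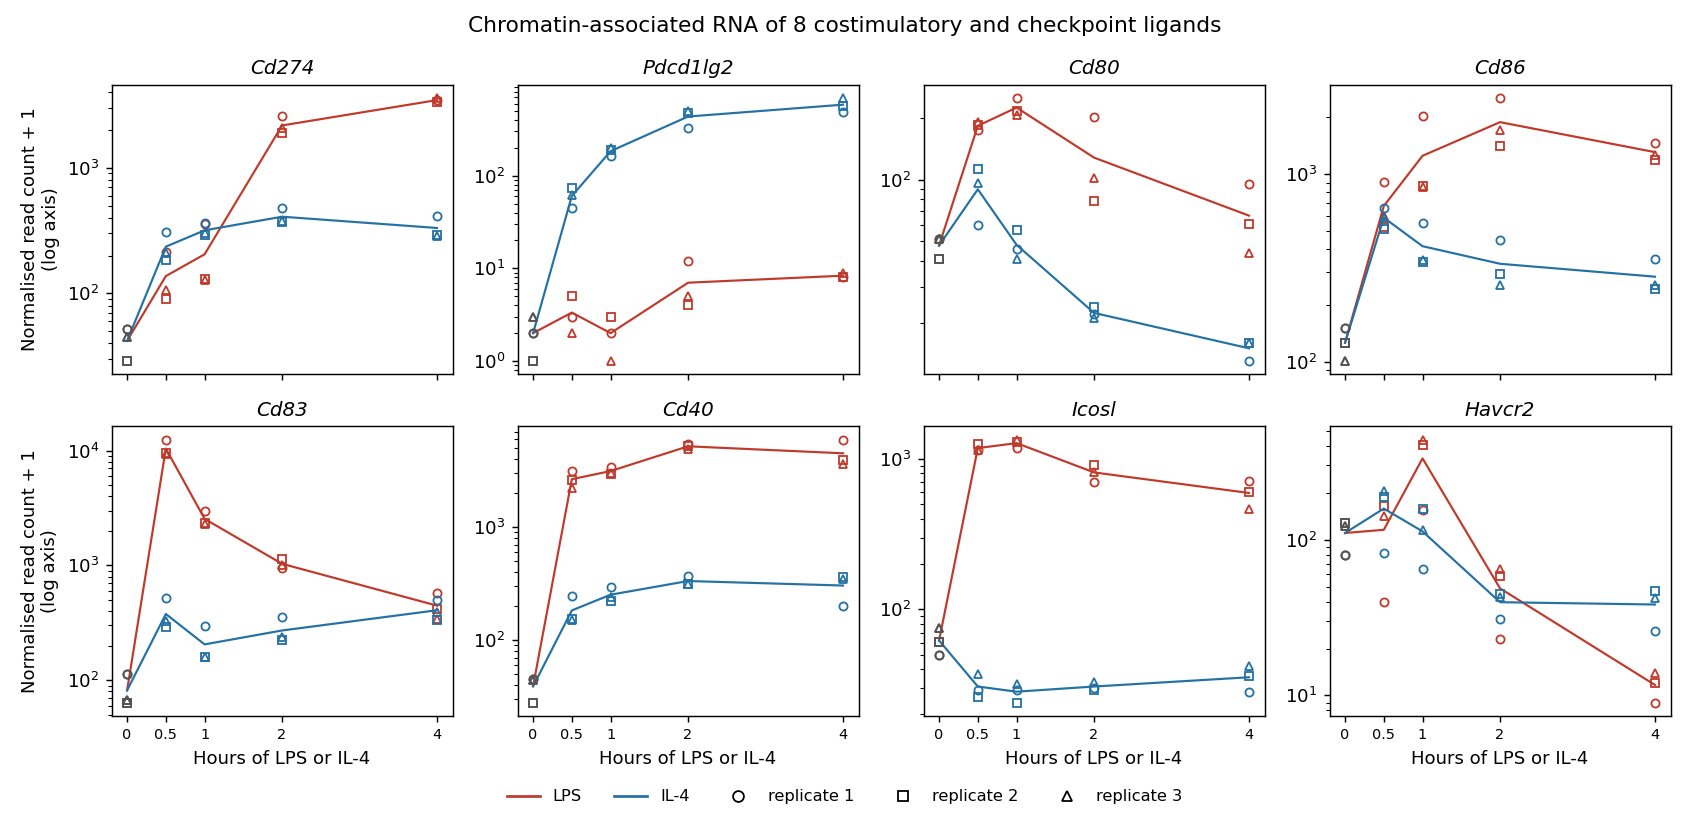
Normalised read counts plus 1 (log axis) of the 8 genes against hours of stimulation, with a symbol per replicate, a line through the group means and grey symbols at 0 h for the untreated samples. By group mean LPS (red) lay above IL-4 (blue) at every time for Cd80, Cd86, Cd83, Cd40 and Icosl, IL-4 lay above LPS at every time for Pdcd1lg2, and the lines crossed for Cd274 and Havcr2.

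**Figure D2:**
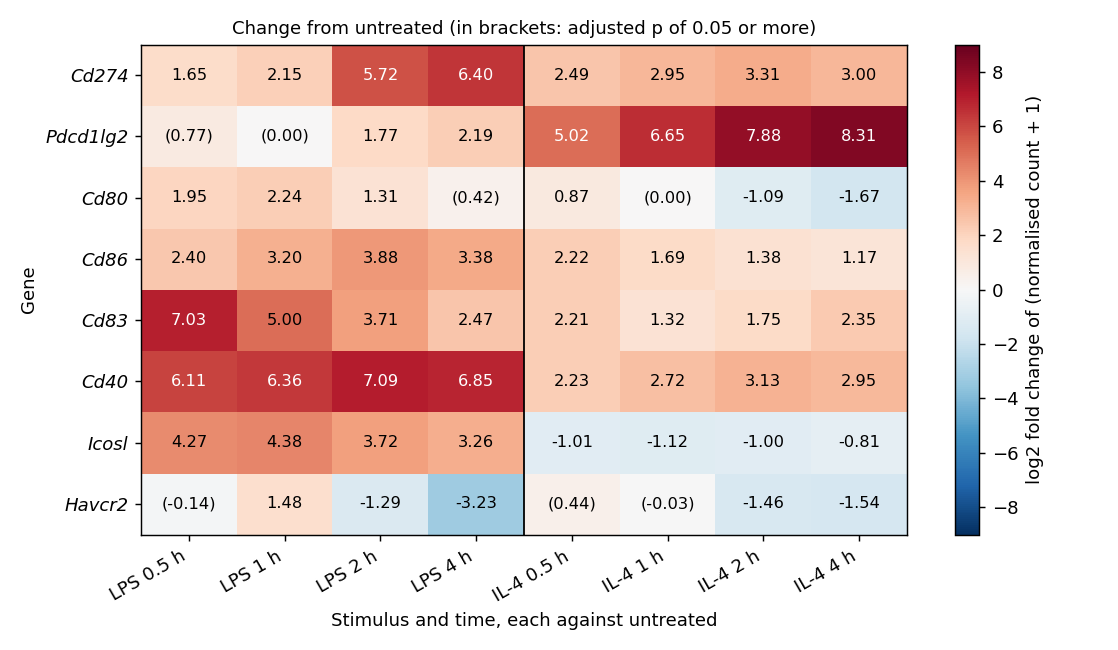
Change of each gene from untreated (log2 fold change of normalised read count + 1) at each stimulus and time, with values in brackets where the adjusted p was not under 0.05. Pdcd1lg2 at IL-4 2 and 4 h (7.88 and 8.31), Cd40 at LPS 2 h (7.09) and Cd83 at LPS 0.5 h (7.03) are the darkest cells. Icosl is the only row that is red throughout under LPS and blue throughout under IL-4.

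Cd274 and Pdcd1lg2 are neighbours. In the table's coordinates (GRCm38, counted from 1) Cd274 spans chr19:29367438-29388095 and Pdcd1lg2 spans chr19:29410919-29472927, both on the plus strand, with 22.8 kb between them. The sequences around their annotated starts are printed because the responses of the adjoining genes to the stimuli differed. Each runs from 250 bases before to 50 bases after the start (RefSeq, GRCm38.p6, plus strand), and capitals mark a match to one of the 5 motifs searched on both strands.
Cd274 chr19:29367188-29367487: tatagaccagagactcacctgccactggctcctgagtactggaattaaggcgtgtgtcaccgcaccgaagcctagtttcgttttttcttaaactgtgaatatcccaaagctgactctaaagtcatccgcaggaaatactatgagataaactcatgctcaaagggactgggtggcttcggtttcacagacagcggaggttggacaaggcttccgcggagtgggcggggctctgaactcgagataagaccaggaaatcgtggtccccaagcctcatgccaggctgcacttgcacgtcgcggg
Pdcd1lg2 chr19:29410669-29410968: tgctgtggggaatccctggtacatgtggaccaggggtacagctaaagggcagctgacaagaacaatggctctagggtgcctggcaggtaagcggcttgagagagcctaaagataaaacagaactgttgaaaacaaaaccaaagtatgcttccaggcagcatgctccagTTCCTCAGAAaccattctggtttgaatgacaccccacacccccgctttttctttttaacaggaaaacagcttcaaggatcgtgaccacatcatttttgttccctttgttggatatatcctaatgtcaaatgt

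The capitals in Pdcd1lg2 are a match, 82 bases before the start, to TTC and GAA with 4 bases between them, the spacing of a STAT6 site, which 6.95% of the 32851 promoter windows of the same length hold. Neither window held GGG and TTTCC with 2 bases between them (kappa B, in 1.63% of windows), TTCNNNGAA (gamma activated sequence, 8.30%), GAAA and GAAA with 2 bases between them (interferon response element type, 3.44%) or TGANTCA (AP-1, 7.81%). Windows were at hand for 5 of the 8 genes. That of Icosl held none of the 5 motifs, and those of Cd80 and Havcr2 each held TGANTCA, starting 42 and 200 bases before the start. These are letter matches, and no binding was measured here.

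Cd274 rose under both stimuli with different timing. In untreated cells replicates 1, 2 and 3 had 51, 28 and 44 normalised read counts (41 ± 11.8, mean ± SD, n = 3). Under LPS the replicates held 213, 90 and 106 after 0.5 h and 354, 130 and 127 after 1 h, then 2555, 1880 and 2056 after 2 h and 3438, 3321 and 3572 after 4 h. The 3 replicates lay above every untreated value at each time, and the largest step came between 1 and 2 h. It was 3.57 ± 0.36 (log2, SE, limma adjusted p = 8.89e-07), and at 4 h the change from untreated was 6.40 ± 0.36, or 84.0-fold by means (limma adjusted p = 4.25e-10). Under IL-4 the replicates held 308, 185 and 210 after 0.5 h, 359, 289 and 301 after 1 h, 475, 369 and 375 after 2 h and 413, 291 and 287 after 4 h. The IL-4 rise was thus present at the first time, 2.49 ± 0.23 (limma adjusted p = 5.02e-06), and it was 3.31 at 2 h. The change from 0.5 to 2 h was 0.82 ± 0.23 (limma adjusted p = 0.0180), with each numbered replicate higher at 1 h than at 0.5 h and again at 2 h. The 2 steps (0.46 and 0.36) passed with the replicate block (limma adjusted p = 0.0158 and 0.0495) and not in the unblocked fit of all 3 replicates. In the fit of all 27 samples LPS minus IL-4 for Cd274 was −0.85 and −0.80 ± 0.32 at the first 2 times (limma adjusted p = 0.0281 and 0.0313), and 2.41 and 3.40 ± 0.32 at the last 2 (limma adjusted p = 4.53e-07 and 1.51e-09). The 2 early differences had overlapping replicates and passed in no fit without replicate 2 (−0.75 and −0.63) or replicate 3 (−0.78 and −0.58), nor after median-of-ratios rescaling (−0.60 and −0.52). The body of Cd274 contains Gm36043, a non-coding gene on the other strand, whose counts were 6 to 11 in untreated and 479 to 568 in LPS 4 h samples. Whether the counting used strand is not stated, so reads of the pair cannot be told apart.

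Pdcd1lg2 was near 0 in untreated macrophages and rose with IL-4. It passed the filter on low values through its IL-4 samples, so a higher level under IL-4 came with passing it. The untreated replicates held 1, 0 and 2 normalised read counts. IL-4 brought 44, 73 and 61 after 0.5 h, 162, 186 and 200 after 1 h, 324, 479 and 497 after 2 h and 491, 570 and 686 after 4 h. No IL-4 replicate overlapped an untreated one, and the mean at 4 h, 582 ± 98.1 (SD, n = 3), was 194-fold the floor of 3 normalised read counts, which no untreated library passed. On the log2 scale the change grew from 5.02 ± 0.32 at 0.5 h to 8.31 ± 0.32 at 4 h (limma adjusted p = 1.99e-07 and 1.13e-09). The steps from 0.5 to 1 h (1.63 ± 0.32) and from 1 to 2 h (1.22 ± 0.32) passed the test (limma adjusted p = 0.00735 and 0.0302), while the step from 2 to 4 h, 0.44 ± 0.32, did not (limma adjusted p = 0.542). Both called steps were lost without replicate 2 (1.78 and 1.15) and without replicate 3 (1.60 and 1.18). LPS left the gene close to its floor, with 2, 4 and 1 after 0.5 h, 1, 2 and 0 after 1 h, 11, 3 and 4 after 2 h and 7, 7 and 8 after 4 h. The last 2 times passed against untreated (1.77 and 2.19, limma adjusted p = 0.00928 and 0.00231), with a mean of 7.33 ± 0.58 (SD, n = 3) at 4 h. The call at 2 h was lost without replicate 1 (1.37, limma adjusted p = 0.0798). Between the stimuli Pdcd1lg2 was lower under LPS at all 4 times, LPS minus IL-4 being −4.25, −6.65, −6.10 and −6.12 ± 0.42 (log2, SE), with limma adjusted p-values from 2.60e-12 to 1.13e-08.

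The genes around the pair were looked at after the members' values were known. The window of 250 kb on either side of the Cd274 start touched 14 annotated genes, of which 11 passed the filter on low values, and 8 remained without Cd274, Pdcd1lg2 and the Gm36043 gene inside Cd274. Over the 4 LPS times 2, 4, 5 and 7 of these 8 were called higher (19.6%, 24.8%, 26.9% and 25.9% of all tested genes) and 3, 2, 1 and 0 lower (34.4%, 39%, 39% and 37.6%). Insl6 and Gm41829, among those called higher, passed the filter through LPS samples, so a higher level under LPS came with passing it. Over the IL-4 times 5, 5, 5 and 6 were called higher (8.15%, 11.1%, 14.3% and 13.4%) and 0 were called lower at any time (8.14%, 9.83%, 13.2% and 12.5%). Jak2, a kinase of cytokine receptors, starts 116 kb before Cd274 and rose by 4.90 at LPS 4 h and 1.41 at IL-4 4 h. Plgrkt, a plasminogen receptor gene on the other strand whose start lies 5.57 kb from that of Cd274, changed by −0.68, −0.83, 0.24 and 0.63 over the LPS times, of which the third was not called, and rose under IL-4 by 1.55, 2.06, 2.04 and 1.52. Ric1, which starts 49.4 kb after Pdcd1lg2, rose by 1.66 at LPS 4 h and 1.39 at IL-4 4 h. Of the tested genes in the window Pdcd1lg2 had the largest change at IL-4 4 h and Cd274 the largest at LPS 4 h.

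**Figure D3:**
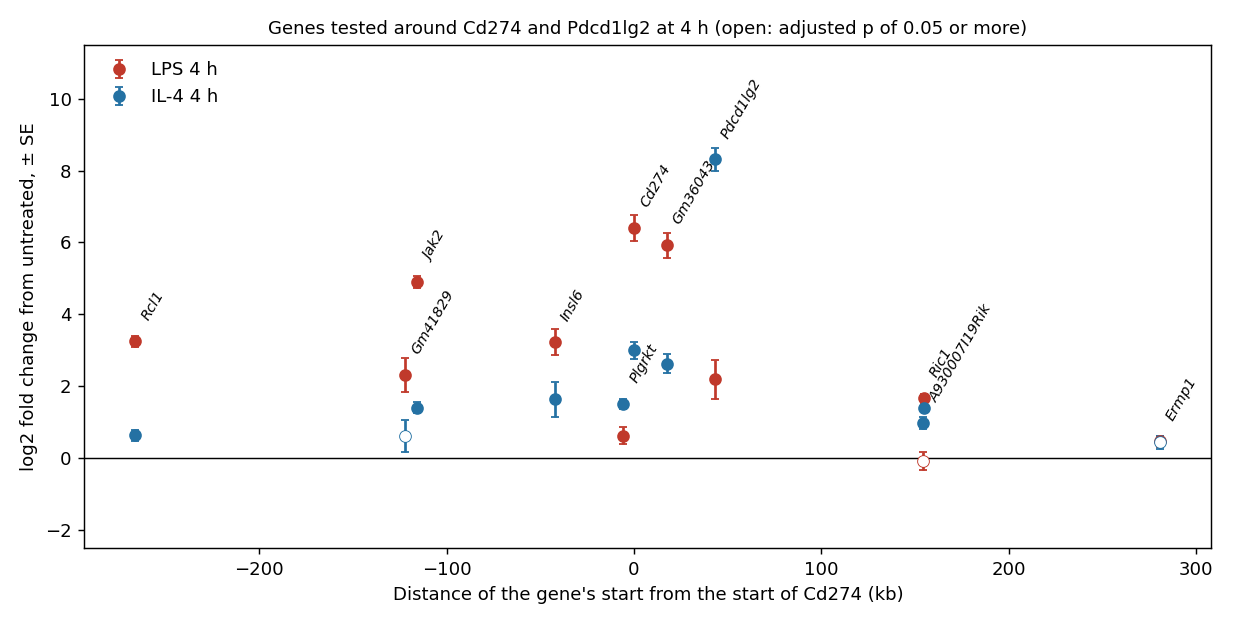
Change from untreated at 4 h (log2, ± SE) of the 11 tested genes in the window, placed by the distance of their start from that of Cd274 in kb, with LPS in red, IL-4 in blue and open circles where the adjusted p was not under 0.05. Cd274 and the overlapping Gm36043 stand highest under LPS (6.40 and 5.92), and Pdcd1lg2, 43.5 kb after the Cd274 start, stands highest under IL-4 (8.31) and at 2.19 under LPS.

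Cd80 and Cd86 encode the CD28 ligands and lie on chromosome 16 at chr16:38458933-38495958 (plus strand) and chr16:36603869-36666077 (minus strand), 1793 kb apart. Cd86 rose under both stimuli at every time, while Cd80 rose early and then returned or fell. The untreated replicates held 151, 125 and 100 normalised read counts of Cd86. LPS brought 901, 522 and 600 after 0.5 h, 2033, 866 and 847 after 1 h, 2534, 1411 and 1714 after 2 h and 1468, 1182 and 1267 after 4 h, and no LPS replicate overlapped an untreated one. The change was 2.40 ± 0.31 at 0.5 h and 3.88 ± 0.31 at 2 h, where the mean was 15.1-fold untreated (limma adjusted p = 9.90e-06 and 2.18e-08). IL-4 brought 660, 508 and 585 after 0.5 h, 546, 341 and 348 after 1 h, 445, 293 and 257 after 2 h and 351, 243 and 255 after 4 h. Its largest change was the first, 2.22 ± 0.24, and the value at 4 h was 1.17 ± 0.24 (limma adjusted p = 1.62e-05 and 0.00220). From 0.5 to 4 h of IL-4 the gene changed by −1.05 ± 0.24 (limma adjusted p = 0.00437), and the call of a rise at 4 h was lost without replicate 3 (1.08, limma adjusted p = 0.0588). At 0.5 h the stimuli were close, LPS minus IL-4 being 0.17 (95% interval −0.43 to 0.78, limma adjusted p = 0.650), and they then parted to 1.51, 2.50 and 2.22 at 1, 2 and 4 h, each called. With replicates blocked by number, the LPS steps of Cd86 from 1 to 2 h (0.68) and from 2 to 4 h (−0.49) passed as well.

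For Cd80 the untreated replicates held 50, 40 and 50 normalised read counts. LPS brought 173, 183 and 190 after 0.5 h and 249, 216 and 206 after 1 h, followed by 202, 78 and 101 after 2 h and 94, 60 and 43 after 4 h. The rise was 2.24 ± 0.30 at 1 h, or 4.79-fold (limma adjusted p = 9.58e-06), and at 4 h the replicates overlapped with untreated ones (0.42 ± 0.30, limma adjusted p = 0.233). IL-4 brought 59, 112 and 95 after 0.5 h, 45, 56 and 40 after 1 h, 21, 23 and 20 after 2 h and 12, 15 and 15 after 4 h. All replicates at 2 and 4 h lay under every untreated value. The change from untreated was 0.87 at 0.5 h, −1.09 at 2 h and −1.67 at 4 h, each ± 0.22 (limma adjusted p = 0.0132, 0.00184 and 6.50e-05), and from 0.5 to 4 h it was −2.54 ± 0.22 (limma adjusted p = 2.29e-06). The rise at 0.5 h was lost without replicate 2 (0.57) or replicate 3 (0.85), and the fall at 2 h without replicate 3 (−0.99). At LPS 2 h the change was 1.31 ± 0.30, and with equal totals it was 0.66 and not called (limma adjusted p = 0.0515). Between the stimuli Cd80 was higher under LPS at all 4 times, by 1.08, 2.24, 2.40 and 2.09 ± 0.28 (SE, limma adjusted p = 0.00221 at 0.5 h and at most 5.27e-07 later). The body of Cd80 holds Gm8590 and Ck-ps3, pseudogenes on its own strand, and Gm41453 on the other strand. Each of these 3 stayed at or under 17 normalised read counts in all samples.

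Icosl, the ICOS ligand (chr10:78069368-78079525, plus strand), went in opposite directions under the stimuli at all 4 times. Untreated replicates held 49, 60 and 74 normalised read counts. LPS brought 1141, 1256 and 1138 after 0.5 h, 1188, 1287 and 1343 after 1 h, 699, 915 and 822 after 2 h and 714, 599 and 464 after 4 h. The level was thus near its highest at the first time, 19.3-fold untreated (4.27 ± 0.17, limma adjusted p = 1.44e-11), and from 0.5 to 4 h it changed by −1.01 ± 0.17 (limma adjusted p = 7.12e-05). IL-4 left 28, 25 and 36 after 0.5 h, 28, 23 and 31 after 1 h, 29, 28 and 32 after 2 h and 27, 35 and 41 after 4 h. Every IL-4 replicate lay under the lowest untreated value of 49. The changes were −1.01, −1.12, −1.0 and −0.81 ± 0.20 (log2, SE, limma adjusted p = 0.00321, 0.00114, 0.00215 and 0.00923). All 4 calls were lost without replicate 2 (−0.90, −1.01, −0.96 and −0.84), and the last also without replicate 3 (−0.80). LPS minus IL-4 was 5.28, 5.50, 4.72 and 4.07 ± 0.18, with limma adjusted p-values from 1.50e-17 to 1.15e-15. Gm51775, a non-coding gene on the other strand that overlaps the start of Icosl, held 3 to 8 normalised read counts in untreated, 48 to 130 in LPS and 2 to 5 in IL-4 samples. Reads of the 2 genes cannot be told apart without strand.

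Cd40 (chr2:165055636-165071654, plus strand) encodes the receptor through which helper T cells activate antigen-presenting cells. It rose early and stayed up under both stimuli, more under LPS. The untreated replicates held 44, 27 and 43 normalised read counts. LPS brought 3122, 2635 and 2237 after 0.5 h, 3426, 2982 and 3035 after 1 h, 5481, 5220 and 4948 after 2 h and 5984, 3975 and 3607 after 4 h. The level at 0.5 h was already 70.1-fold and that at 2 h 137-fold untreated (6.11 ± 0.20 and 7.09 ± 0.20, limma adjusted p = 1.70e-12 and 2.06e-13). IL-4 brought 245, 152 and 150 after 0.5 h, 296, 220 and 239 after 1 h, 369, 316 and 314 after 2 h and 200, 361 and 350 after 4 h. No IL-4 replicate overlapped an untreated or an LPS one, and the largest IL-4 change was 3.13 ± 0.25 at 2 h (limma adjusted p = 7.01e-07). The difference between the stimuli was nearly level over time, 3.89, 3.65, 3.97 and 3.90 ± 0.23 in favour of LPS, with limma adjusted p-values of at most 1.69e-12. The LPS step from 1 to 2 h (0.73 ± 0.20, limma adjusted p = 0.00699) was lost without replicate 2 (0.69) or replicate 3 (0.74).

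Cd83 (chr13:43785112-43803133, plus strand) encodes a surface protein used as a marker of mature dendritic cells and activated antigen-presenting cells. Under LPS it had the largest early change of the 8 genes and then fell at each step. Untreated replicates held 112, 63 and 67 normalised read counts. LPS brought 12466, 9443 and 9327 after 0.5 h, 2990, 2336 and 2297 after 1 h, 956, 1142 and 998 after 2 h and 576, 419 and 341 after 4 h, with no overlap between successive times. The change was 7.03 ± 0.22 at 0.5 h, or 129-fold, and 2.47 ± 0.22 at 4 h (limma adjusted p = 1.07e-12 and 8.30e-08). The 3 steps were −2.03, −1.29 and −1.24 ± 0.22 (limma adjusted p = 2.09e-06, 0.000165 and 0.000706), the last one lost without replicate 2 (−1.14, limma adjusted p = 0.0517). IL-4 brought 515, 290 and 325 after 0.5 h, 294, 160 and 159 after 1 h, 352, 222 and 237 after 2 h and 499, 331 and 389 after 4 h. Each replicate followed the same path, down from 0.5 to 1 h and up again to 4 h. All 4 IL-4 times lay above untreated, by 2.21, 1.32, 1.75 and 2.35 ± 0.30 (limma adjusted p = 0.000149, 0.00587, 0.000596 and 5.77e-05), the one at 1 h not without replicate 2 (1.31) or replicate 3 (1.36). None of the 3 IL-4 steps between successive times was called in the unblocked fit, and all 3 were once the replicate number entered as a block (−0.90, 0.43 and 0.60, limma adjusted p = 1.20e-05, 0.00301 and 0.000442). LPS minus IL-4 went from 4.82 ± 0.26 at 0.5 h through 3.68 and 1.96 to 0.12 at 4 h (95% interval −0.43 to 0.66, limma adjusted p = 0.705).

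Havcr2 (chr11:46454931-46481255, plus strand) encodes TIM-3, an inhibitory receptor of T cells and myeloid cells. Its replicate 1 lay below the mean of replicates 2 and 3 in 9 of 9 groups, while replicates 2 and 3 differed by a median of 0.16 (log2). The untreated replicates held 79, 127 and 122 normalised read counts. Under LPS they held 39, 164 and 141 after 0.5 h, 154, 402 and 438 after 1 h, 22, 57 and 64 after 2 h and 8, 11 and 13 after 4 h. The level was above untreated at 1 h and below it at 2 and 4 h, with no overlap at these 3 times. The changes were 1.48 ± 0.52, −1.29 ± 0.52 and −3.23 ± 0.52 (limma adjusted p = 0.0212, 0.0402 and 5.73e-05), and from 1 to 4 h the gene fell by 4.72 ± 0.52, or 31.1-fold by means (limma adjusted p = 1.65e-06). Under IL-4 the replicates held 81, 187 and 204 after 0.5 h, 64, 157 and 115 after 1 h, 30, 44 and 42 after 2 h and 25, 46 and 41 after 4 h. The first 2 times overlapped untreated and were not called, and the changes at 2 and 4 h were −1.46 ± 0.38 and −1.54 ± 0.38 (limma adjusted p = 0.0109 and 0.00881). Of these calls, those at LPS 1 and 2 h and at IL-4 2 and 4 h were lost without replicate 2 (1.39, −1.36, −1.44 and −1.59) and without replicate 3 (1.30, −1.47, −1.44 and −1.53), and that at LPS 1 h also with equal totals (0.90). Without a filter on low values both LPS calls were lost (limma adjusted p = 0.0895 and 0.137), and that at 2 h also after median-of-ratios rescaling (−1.05, limma adjusted p = 0.0698). The fall at LPS 4 h passed in each of the 11 alternatives. With replicates blocked by number none of the Havcr2 calls against untreated was lost. Between the stimuli Havcr2 was higher under LPS at 1 h and lower at 4 h, LPS minus IL-4 being 1.51 and −1.70 ± 0.50 (limma adjusted p = 0.0107 and 0.00439), calls that were lost without replicate 2 (1.59 and −1.56), the first also without replicate 3 (1.30) and with equal totals (1.03). At 0.5 h LPS minus IL-4 was −0.58 (95% interval −1.61 to 0.44), a difference that passed with the replicate block (limma adjusted p = 0.0254), and at 2 h it was 0.18 (−0.85 to 1.21).

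**Figure D4:**
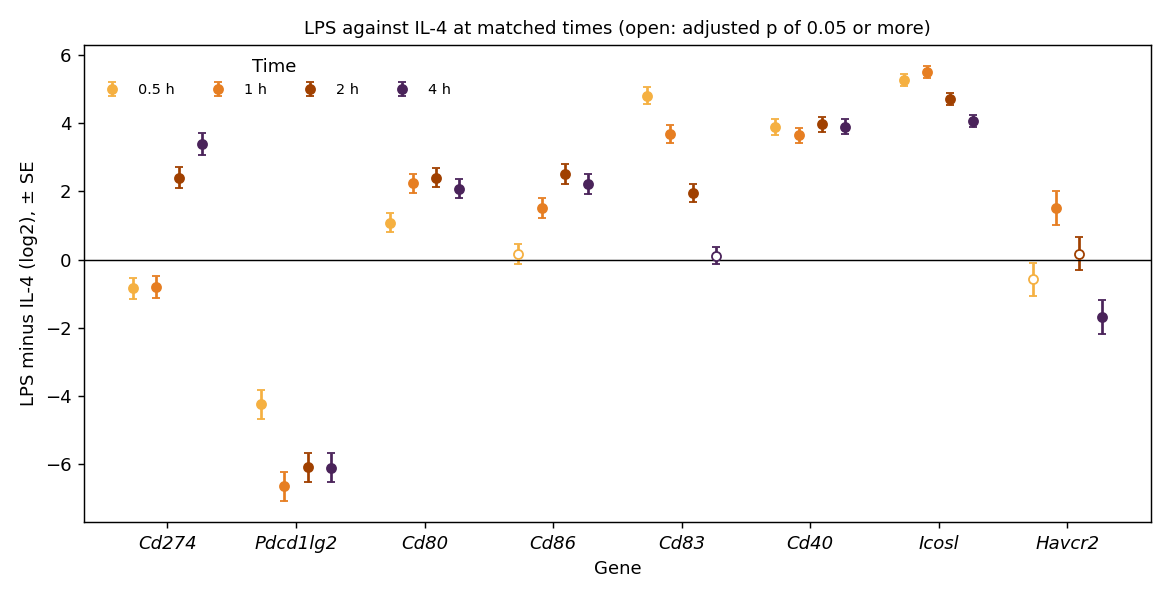
Difference between LPS and IL-4 (log2, ± SE from the fit of all 27 samples) for each gene at the 4 times, from light to dark, with open circles where the adjusted p was not under 0.05. Icosl (4.07 to 5.50) and Cd40 (3.65 to 3.97) lie above 0 throughout, Pdcd1lg2 (−6.65 to −4.25) lies below 0 throughout, Cd83 falls from 4.82 to 0.12, and Cd274 rises from −0.85 to 3.40.

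Set side by side, the members that were called higher and lower against untreated were 6 and 0 at LPS 0.5 h (19.6% and 34.4% of all genes), 7 and 0 after 1 h (24.8% and 39%), 7 and 1 after 2 h (26.9% and 39%) and 6 and 1 after 4 h (25.9% and 37.6%). Under IL-4 they were 6 and 1 after 0.5 h (8.15% and 8.14%), 5 and 1 after 1 h (11.1% and 9.83%), 5 and 3 after 2 h (14.3% and 13.2%) and 5 and 3 after 4 h (13.4% and 12.5%). The members thus leaned to rises where all genes leaned to falls under LPS. The split over all genes moved with the scaling: at LPS 2 h 40.8% of called genes were higher with the authors' scaling, 49.3% after median-of-ratios rescaling and 22.9% with equal totals, where the median gene changed by −0.29, −0.06 and −0.91. No called change of a member turned its direction under either scaling. LPS and IL-4 differed in 6, 8, 7 and 7 of the 8 genes in order of time, where 53.8%, 64.5%, 68.6% and 68% of all genes differed. Between successive LPS times 3 members changed from 0.5 to 1 h, 7 from 1 to 2 h and 3 from 2 to 4 h (49.7%, 43.3% and 22.9% of all genes), the last count being 6 with the replicate block. Between successive IL-4 times 2, 3 and 0 members changed (7.82%, 9.4% and 5.48% of all genes). With the replicate block these IL-4 counts were 5, 5 and 1, and for the last step 1 gene, Cd80, had an unadjusted limma p under 0.05.

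Replicate 1 stood apart from the other two for several members in the same way in most groups. Cd86 was higher in replicate 1 than the mean of replicates 2 and 3 in 9 of 9 groups (median 0.66 on the log2 scale), and Cd274, Cd83 and Cd40 were higher in 8 of 9. Havcr2 was lower in replicate 1 in 9 of 9 groups (median −1.06). Replicates 2 and 3 of Havcr2 differed from each other by a median of 0.16. What sets replicate 1 apart is not given by the labels, and its part in the results was not tested beyond the fits without it and with the block.

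The libraries carried macrophage markers throughout, with Adgre1, Csf1r, Cd68, Itgam, Mertk, Fcgr1, Lyz2 and Mrc1 summing to 11120 to 13024 normalised read counts in untreated, 10014 to 17867 in LPS and 18194 to 29180 in IL-4 samples. These markers did not move together. Mean Mrc1 was 1878 in untreated, 15654 at IL-4 1 h and 102 at LPS 4 h. Csf1r went from 1971 to 456 at LPS 2 h, and Adgre1 from 4245 to 9452 at LPS 1 h. The sums therefore do not measure cell content. The 8 dendritic cell markers summed to 12 to 21, 22 to 111 and 13 to 35, with Xcr1 at 0 in all 27 samples. Of these markers 5 passed the filter on low values. Mean Zbtb46 went from 3.33 in untreated samples to 60.7 at LPS 1 h. At LPS 4 h mean Clec9a was 29.3 and mean Ccr7 16.3, against 6.33 and 0 in untreated samples. The 8 T cell markers summed to 6 to 15, 8 to 45 and 2 to 12, with Cd3e and Cd3g at 0, the 7 neutrophil markers to at most 50 with Ly6g at 0, the 7 B cell markers to at most 20 and the 6 mast cell or basophil markers to at most 11. Cxcr2, the only neutrophil marker that passed the filter, had group means from 9.67 to 21.0. Which cells these transcripts came from was not tested. The 6 fibroblast markers summed to 39 to 92, 44 to 282 and 29 to 211, and the part of any such cells in the members' levels was not tested. Of these markers Col1a1 had group means from 20.7 to 41.7 and Col1a2 from 35.0 to 58.3, so both were measured in every group. Pdgfrb had a mean of 1.67 in untreated samples and 87.7 at LPS 4 h. The means of Pdgfra, Dcn and Col3a1 were at most 4.0 in any group. In bulk samples fewer cells of a type and less RNA per cell cannot be told apart. Total normalised read counts were 2469768 to 2790981 in untreated and IL-4 samples and 3571492 to 4058199 in LPS samples. Having been scaled by the authors, these totals are not depths, and the depth of the libraries is not given by the values.

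Because genes differ in length, levels were compared between members only per kilobase, of gene span unless stated. In untreated cells the means were 6.01 for Icosl, 4.48 for Cd83, 4.15 for Havcr2, 2.37 for Cd40, 2.01 for Cd86, 1.98 for Cd274, 1.26 for Cd80 and 0.02 for Pdcd1lg2. At LPS 4 h the order was led by Cd40 at 282 and Cd274 at 167 normalised read counts per kilobase, and at IL-4 4 h by Cd83 at 22.5, Cd40 at 19.0, Cd274 at 16.0 and Pdcd1lg2 at 9.39. Whether introns were counted is not stated, and per kilobase of spliced transcript the untreated order was led by Cd86 (49.4) and Havcr2 (40.1) in place of Icosl (22.2). At IL-4 4 h the spliced measure gave 190 for Cd83, 171 for Pdcd1lg2, 170 for Cd40 and 90.8 for Cd274. The order of the PD-1 ligands at IL-4 4 h thus depends on the length used.

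For each member the 3 protein-coding genes with the most similar changes were found by the root mean square difference of the 8 log2 changes, among 7568 genes whose highest group mean was 50 or more. Cd274 was closest to Angpt1, Dgat2 and Cobll1 (0.92 to 1.12), and Pdcd1lg2 to Tmem26, Scn3a and Flt1 (1.28 to 1.80). Tmem26 reached 7.60 and Scn3a 9.12 at IL-4 4 h, against 2.60 and 2.78 at LPS 4 h, where the mean of Scn3a was 7.67. Flt1 also rose under LPS, by 4.39 at 2 h and 3.94 at 4 h, against 6.78 at IL-4 4 h. Cd80 was closest to Dennd4a, Zmynd15 and Zfp719 (0.41 to 0.44), which likewise lay above untreated at LPS 1 h and below it at IL-4 4 h by group means, and Cd86 was closest to Etv3, Rel and N4bp1 (0.45 to 0.52). Rel encodes the NF-κB subunit c-Rel. Cd83 was closest to Zc3h12c, Plek and Csrnp1 (0.85 to 1.07), and Cd40 to C3, Sdc4 and Tnip3 (1.07 to 1.29), of which C3 is the central complement component. Icosl was closest to Mapkapk2, Tnip1 and Cybb (0.43 to 0.48), whose largest LPS changes were 5.00, 4.34 and 3.99 and whose changes under IL-4 were all below 0. Mapkapk2 is a kinase downstream of p38, Tnip1 a restraint on NF-κB signalling and Cybb the catalytic subunit of the phagocyte oxidase. Havcr2 was closest to Rps6ka5, Ankrd28 and Rad18 (0.52 to 0.57), all above untreated at LPS 1 h and below it at 2 and 4 h by group means. Of these 24 genes 16 were named again with a pseudocount of 8 and 4 with Pearson's correlation in place of the distance, so the list depends on the measure.

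The wider family was followed with a list of 34 other ligands and partners of antigen-presenting cells, all in the table and 24 of them tested. Over the LPS course 23 of the 24 were called, of which 15 rose and 8 fell at their largest change (95.8% against 87.6% of all genes), and over the IL-4 course 14 were, of which 5 rose and 9 fell (58.3% against 40.3%). The largest rises under LPS were those of Tnfsf9, the 4-1BB ligand, from 9.33 ± 2.89 to 2670.0 ± 230 normalised read counts (SD, n = 3) at 0.5 h (8.05 ± 0.19), and of Tnfsf15, the TL1A gene, at 2 h (7.96 ± 0.28). Slamf1 (7.26 ± 0.64) and Cd200, the ligand of the inhibitory receptor CD200R (7.20 ± 0.50), peaked at 4 h. The largest falls were those of Vsig4, a complement receptor of resting macrophages that restrains T cells (−5.87 ± 0.25 at 4 h), Cd200r1 (−3.32 ± 0.21 at 0.5 h), the galectin gene Lgals3 (−2.25 ± 0.25 at 2 h) and Vsir, encoding the checkpoint protein VISTA (−2.15 ± 0.21 at 4 h). Cd200 and its receptor gene Cd200r1 thus moved in opposite directions under LPS. IL-4 raised Cd200r1 from 711 ± 78.1 to 1581 ± 299 at 1 h (1.14 ± 0.17), with smaller rises of Pvr (0.96 ± 0.15), Cd47 (0.63 ± 0.09) and Sirpa (0.51 ± 0.10) at 0.5 h. Vsig4 (−2.68 ± 0.25 at 2 h), Lgals9, the galectin-9 gene (−1.82 ± 0.21 at 4 h), Vsir (−1.40 ± 0.15 at 0.5 h) and Tnfrsf14 (−1.17 ± 0.16 at 1 h) fell under IL-4. All of these named changes had limma adjusted p-values of at most 0.00200. Tnfsf15, Slamf1 and Cd200 passed the filter on low values through their LPS samples, so a higher level under LPS came with passing it. Cd276, Tnfsf4, Tnfsf9 and Tnfsf14, also among the 15 rises, had means under 10 in untreated and all IL-4 groups. They reached means of 10 or more under LPS, so the same limit holds for them. The count of rises under LPS was thus in part set by the filter. The IL-4 count of 14 was 7 without replicate 2 and 6 without replicate 3.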

How the data were processed

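Chromatin-associated RNA of mouse BMDMs was measured in 9 groups of 3. Per the study's methods, the authors made Smart-seq2 libraries with random primers, sequenced them single-end, aligned the reads to mm10 with TopHat2 (2.1.1 in the submitters' processing notes), discarded multi-mapping and blacklisted reads (bedtools 2.29.2), counted reads per RefSeq gene and scaled the libraries on invariant genes. What the authors deposited is the scaled count rounded to an integer, handled here as a score since it is no longer a raw read count. Their sums differ by stimulus and are not depths, and 3 libraries use only some of the whole numbers up to 40, so the replicate spread is the only error given. These are LPS 0.5 h replicate 2, LPS 1 h replicate 1 and IL-4 4 h replicate 1. The second held the highest Cd274 (354) and Cd86 (2033) values of its group, and the third the lowest Cd40 value (200). Whether the scaling shaped these values was not tested. Strand use and the counting of introns are not given in the sources used here.

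Genes with at least 10 in at least 3 of 27 samples were put on the log2(value + 1) scale and tested in limma (version 3.58.1 under R 4.3.3, mean-variance trend, Benjamini-Hochberg adjustment, threshold 0.05). Each course was fitted with its 15 samples, and LPS was set against IL-4 in one fit of all 27. Intervals are 95% intervals from the moderated fit. The study's impulse model was not run. The steps were tested on simulated data. The 8 members and all lists were chosen with earlier results of these data known. Beside the members, the text names the 4 largest called rises and falls per stimulus among the other ligands (mean of at least 50 in the higher group), the 3 most similar genes per member and the nearest tested protein-coding genes of the pair on chromosome 19, with Jak2 and the window around the pair added after values were seen.

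Same-numbered replicates deviated together: over 6827 genes and 36 pairs of groups every correlation of same-numbered deviations was between 0.16 and 0.85, so the replicate number of the labels was treated as pairing the samples and fitted as a block in an alternative. The pairing was not complete, since 23 of the 27 samples correlated best, on average, with their own number in the other groups. Errors, p-values and counts in the text come from the unblocked fit unless the block is named. At LPS 0.5 h its SE was 0.52 for Havcr2 (0.24 with the block) and 0.31 for Cd86 (0.16), and 0.54 in both fits for Pdcd1lg2. Uncalled changes of the unblocked fit are therefore not shown to be absent. The other alternatives were a pseudocount of 8, no filter, a mean of at least 50, median-of-ratios rescaling, equal totals, leaving out each replicate, replicates 2 and 3 averaged, and all samples in one fit.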

Additional observations from a re-analysis of the deposited data

Results flagged for a closer look

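Icosl, Cd80 and Havcr2 changed in opposite directions in 2 groups, with the difference itself passing limma's test. Icosl was above untreated under LPS and below it under IL-4 at each time, with LPS minus IL-4 of 5.28, 5.50, 4.72 and 4.07 ± 0.18 in order of time (log2, SE, limma adjusted p from 1.50e-17 to 1.15e-15). All 4 IL-4 calls of Icosl against untreated were lost without replicate 2 (−0.90, −1.01, −0.96 and −0.84). That at 4 h was also lost without replicate 3 and with replicates 2 and 3 averaged. Cd80 was above untreated at LPS 2 h (1.31) and below it at IL-4 2 h (−1.09), a difference of 2.40 ± 0.28 (limma adjusted p = 5.84e-08), where with equal totals the LPS change was 0.66 and not called (limma adjusted p = 0.0515). Within the IL-4 course Cd80 was above untreated at 0.5 h and below it at 2 and 4 h, the change from 0.5 h being −1.96 ± 0.22 to 2 h and −2.54 ± 0.22 to 4 h (limma adjusted p = 2.81e-05 and 2.29e-06). The call of the Cd80 rise at IL-4 0.5 h was lost without replicate 2, without replicate 3 and with replicates 2 and 3 averaged. The call of its fall at IL-4 2 h was lost without replicate 3. Within the LPS course Havcr2 was above untreated at 1 h and below it later, the change from 1 h being −2.77 ± 0.52 to 2 h and −4.72 ± 0.52 to 4 h (limma adjusted p = 0.000435 and 1.65e-06). The calls of Havcr2 against untreated at LPS 1 and 2 h were both lost without replicate 2, without replicate 3 and without a filter on low values, the first also with equal totals and the second after median-of-ratios rescaling (−1.05).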

How the results depend on the processing

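No called change of a member reversed under any of the 11 alternatives. Of 1584 recomputed changes 1446 kept their direction and side of the threshold, 96 lost the call, 27 gained it, and 15 that were uncalled in both fits changed sign. These were Havcr2 at LPS 0.5 h (0.10 after median-of-ratios rescaling, −0.40 to 0.29 when a replicate was left out), at IL-4 1 h (−0.19 to 0.11 likewise), from 2 to 4 h of IL-4 (−0.14 to 0.014) and between the stimuli at 2 h (−0.44 with equal totals, −0.032 to 0.48 when a replicate was left out), Cd80 at LPS 4 h (−0.18 with equal totals) and IL-4 1 h (−0.017 after median-of-ratios rescaling, −0.098 with equal totals, −0.23 to 0.16 when a replicate was left out, −0.029 with replicates 2 and 3 averaged), Cd40 from 2 to 4 h of IL-4 (−0.36 to 0.17), and with equal totals Cd86 between the stimuli at 0.5 h (−0.21) and Cd83 at 4 h (−0.50). Of the 96 losses 51 came without replicate 2 (27) or replicate 3 (24), where no call was gained. Without replicate 1, in fits of the same size, 2 calls were lost and 13 gained. With the replicate block (the pairing of samples by number) the count from 2 to 4 h of LPS went from 3 to 6, and the IL-4 steps from 2 to 5, 3 to 5 and 0 to 1. The block took away no call and otherwise added Cd86 for the LPS step from 1 to 2 h and Havcr2 between the stimuli at 0.5 h. Without a filter on low values 1 member was called in each of the LPS steps from 0.5 to 1 h and from 2 to 4 h and the IL-4 steps from 0.5 to 1 h and from 1 to 2 h. With replicates 2 and 3 averaged these 4 counts were 1, 1, 1 and 0, and 7 other ligands changed over the IL-4 course. In one fit of all samples the first 2 IL-4 steps had 1 member each. Requiring a mean of at least 50 left 15 other ligands changed over the LPS course. Leaving out 1 replicate gave 1 to 3, 4 to 7 and 0 to 6 members in the successive LPS steps, 0 to 7, 0 to 4 and 0 to 1 in the IL-4 steps, 5 to 8 at IL-4 4 h, 6 to 8 over the IL-4 course and 6 to 15 other ligands over the IL-4 course. The cause of these shifts was not tested. Fits without a replicate hold fewer samples, and the fit with a higher minimum holds fewer genes.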

Other observations

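Transcripts of some receptor genes that are best known from T cells were measured in these libraries. Of 12 such genes 5 passed the filter on low values. Btla, Lag3 and Tnfrsf9 passed it only through LPS samples, with means of at most 2.67 in the untreated and IL-4 groups. A higher level under LPS thus came with passing the filter, and their p-values below are no separate evidence of it. Btla, an inhibitory receptor, held a mean of 2.67 normalised read counts in untreated samples and rose to 128 at LPS 4 h (limma adjusted p = 1.56e-06). Lag3 rose from 0.667 to 59.3 and Tnfrsf9, the 4-1BB receptor, from 0 to 40.7 at LPS 2 h (limma adjusted p = 5.76e-08 and 2.32e-08), and both means were lower again at 4 h, at 9.67 and 5.33. Cd28, the receptor of CD80 and CD86, went the other way, from 206 in untreated samples to 1.33 at LPS 4 h (limma adjusted p = 2.66e-09), and at IL-4 2 h its mean was 61.0 (limma adjusted p = 0.00238). Cd27 fell from 19.3 to 5.33 at LPS 1 h (limma adjusted p = 0.00227). Of the 8 T cell markers Cd3e and Cd3g were at 0 in all 27 samples and Cd3d, Cd2 and Cd8a stayed below 10. Lck and Cd5 passed the filter: the mean of Lck was 0.667 in untreated samples and 24.7 at LPS 2 h, the time at which Lag3 and Tnfrsf9 were highest, and that of Cd5 was 1.67 in untreated samples and 19.7 at LPS 0.5 h. Which cells the receptor transcripts came from was not tested. Pdcd1, Ctla4, Cd40lg, Icos, Tigit, Tnfrsf4 and Tnfrsf18 did not pass the filter.

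Genes of the signalling routes moved as well. All 7 that were followed were called over the LPS course (87.6% of all genes were), with Jak2 rising from 161 to 5839 normalised read counts at 2 h and Nfkb1 from 791 to 13244 at 1 h. Over the IL-4 course 4 of the 7 were called (40.3% of all genes were), with Jak2 at 598 and Nfkb1 at 1653 at 1 h (limma adjusted p = 1.14e-06 and 1.40e-06), a rise of Irf1 and a fall of Stat6 from 226 to 163 at 1 h (limma adjusted p = 0.0105).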
